A study of Oryctolagus cuniculus with 24 samples.

Results

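The genes described here are 5 interferon regulatory factors (IRF1, IRF4, IRF5, IRF7 and IRF8), a subunit of the receptor for type I interferons (IFNAR1) and 4 interferon response genes (MX1, ISG15, SAMHD1 and CALHM6). They were chosen by gene symbol with earlier results of these data known, and all 10 had a probe on the array, out of 28890 genes measured. In 9 of them the level is that of 1 probe of 60 bases, and CALHM6 is the mean of 5 probes. None was lost to a filter on dim spots.

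Peripheral blood mononuclear cells (PBMCs, the lymphocytes and monocytes of blood) of 4 rabbits (New Zealand White, adult and female, with the animal numbers 1, 2, 4 and 5) were cultured for 4 h (T4) or 24 h (T24) in RPMI medium with fetal bovine serum. At each time a culture of every rabbit received a buffer without agent (mock), bacterial lipopolysaccharide (LPS, 1 µg/mL), or phorbol myristate acetate at 10 ng/mL with ionomycin at 1 µg/mL (PMA-Ionomycin). LPS is sensed by Toll-like receptor 4, whereas PMA-Ionomycin bypasses surface receptors through protein kinase C and calcium. The 6 groups of 4 cultures were hybridised to 24 one-colour arrays, on which 51.4% to 62.3% of the spots were well above background.

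Interferons are secreted when a cell senses viral or bacterial molecules. Type I interferons bind the IFNAR1 and IFNAR2 receptor and interferon gamma binds the IFNGR1 and IFNGR2 receptor, and both signals reach the nucleus through JAK kinases and STAT factors. Interferon regulatory factors switch on the interferon genes and, with the STAT factors, the response genes, whose products block viral replication or mark cells for immune attack. Some of these factors have a second role in blood cells: IRF4 acts in activated lymphocytes and IRF8 in the development of monocytes, dendritic cells and B cells.

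The probes that carry the results are printed below in the 5′ to 3′ sense, as the scanner files give them. IRF4 and IRF5 are shown because they moved in opposite directions. The probes of IRF7, MX1 and ISG15 are shown because their genes were identified through a description or an annotation list and not through a symbol in the array files.
IRF4: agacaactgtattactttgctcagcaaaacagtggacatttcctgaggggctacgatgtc
IRF5: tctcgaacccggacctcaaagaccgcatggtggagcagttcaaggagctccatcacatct
IRF7: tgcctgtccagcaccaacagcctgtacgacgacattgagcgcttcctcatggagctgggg
MX1: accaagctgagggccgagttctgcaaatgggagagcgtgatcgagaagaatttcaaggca
ISG15: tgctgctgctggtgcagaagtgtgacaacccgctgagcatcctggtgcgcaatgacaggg

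The array files place 4 of the 10 genes on the rabbit assembly oryCun2: the IRF5 probe on the minus strand of chromosome 7 from 15646609 to 15646668, and the SAMHD1 probe on the plus strand of chromosome 4 from 3167155 to 3167214. The IRF1 probe lies on the minus strand of chromosome 3 from 15534961 to 15536078, a span of 1118 bases for its 60 bases. The 5 CALHM6 probes lie side by side on the plus strand of chromosome 12 from 104752641 to 104752837. The files give no position for the other probes.

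A level below is the log2 of a gene's median spot signal minus the median of its array, so that 0 is the middle of the array, and every mean is given with its SD over 4 rabbits. A difference between 2 groups is a difference of these log2 levels, tested with limma over all 28890 genes, and a gene was called where the Benjamini-Hochberg adjusted p was under 0.05. Levels of different probes were not compared. Each time point's stimulated groups share their mock cultures.

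The largest movement of these genes followed PMA-Ionomycin at T4, where 9 of the 10 genes were called, against 22.8% of all genes. IRF1, IRF4 and IRF8 rose (3 of 10, against 13.4% of all genes) and IRF5, IRF7, IFNAR1, MX1, SAMHD1 and CALHM6 fell (6 of 10, against 9.33%). The median difference over the 10 genes was -1.72, and over all genes it was 0.05. At T24, 4 of the 10 were called, against 33.6% of all genes: IRF4 was higher (1 of 10, against 22.1% of all genes) and IRF5, IFNAR1 and CALHM6 were lower (3 of 10, against 11.5%). The called share at T24 was close to that of all genes. Since the 10 genes were chosen with earlier results of these data known, the shares here and below are descriptions and not tests.

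LPS moved few of these genes. At T4 only SAMHD1 passed the threshold, lower than in mock (1 of 10, against 1.02% of all genes called and 0.969% called lower). That share rests on few cultures: without rabbit 2 or rabbit 4 limma called 0 of all genes with LPS at T4 (3179 and 2101 at an unadjusted p under 0.05), and without the LPS T4 array of rabbit 4 it called 3. At T24 only IRF5 passed, also lower (1 of 10, against 1.23% called and 0.582% called lower). At an unadjusted p under 0.05 there were 3 of the 10 at each time. None of the 10 passed limma's test of whether the LPS difference changed between T4 and T24 (against 1.95% of all genes), with 3 under an unadjusted p of 0.05.

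**Figure D1:**
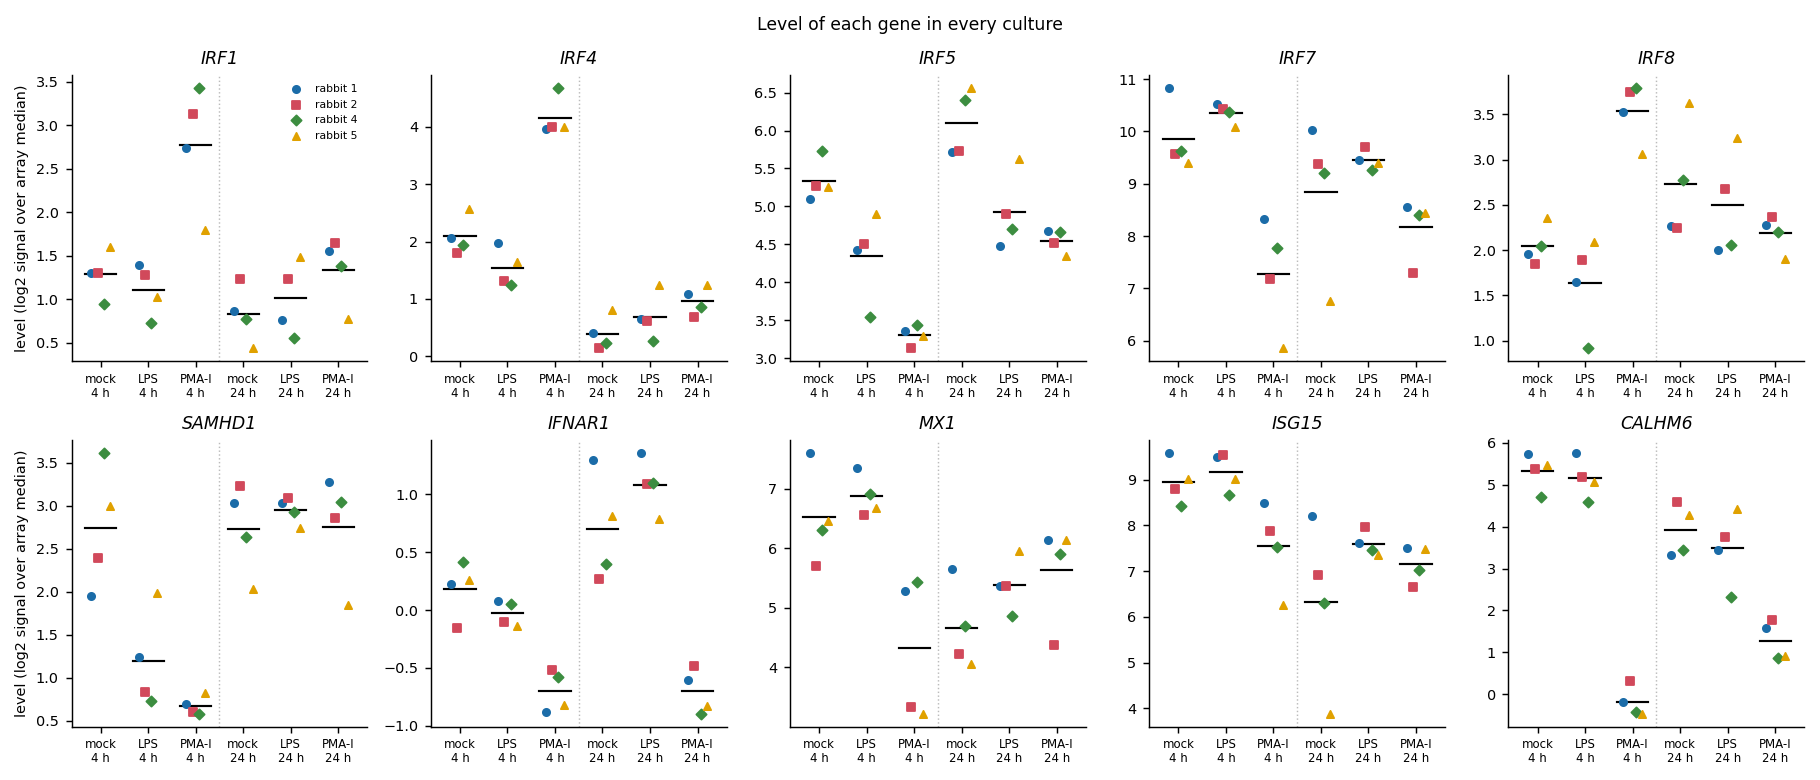
Level of each gene (y axis, log2 signal over the array median) in the 6 groups of cultures (x axis), with 1 point for each of the 4 rabbits and a bar at the group mean. IRF1, IRF4 and IRF8 stand highest in the PMA-Ionomycin cultures at 4 h, and CALHM6 lies at -0.20 there against 5.32 in the mock cultures.

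**Figure D2:**
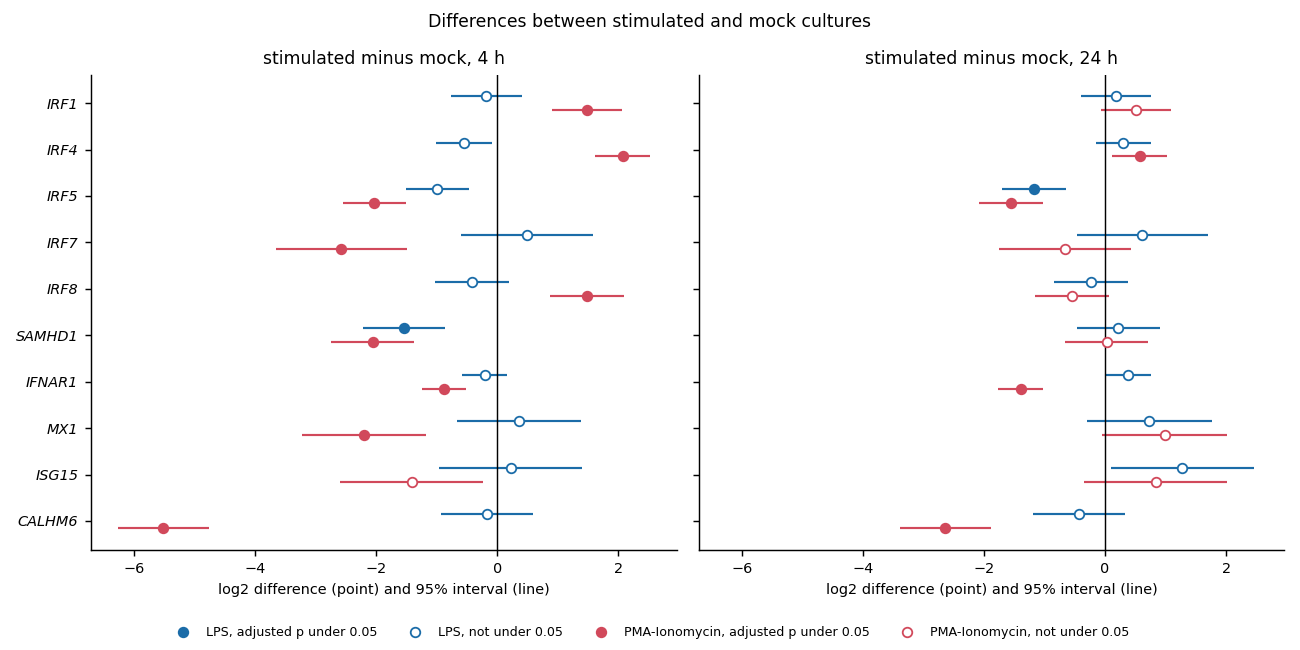
Difference of each gene between stimulated and mock cultures (x axis, log2) at 4 h and 24 h, with the 95% interval as a line. Filled points have an adjusted p under 0.05, as do 9 of the PMA-Ionomycin points at 4 h, 4 at 24 h, and 1 of the LPS points at each time.

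IFNAR1, the receptor chain through which all type I interferons signal, was lower with PMA-Ionomycin at both times. At T4 its level was 0.23, -0.16, 0.41 and 0.26 in the mock cultures of rabbits 1, 2, 4 and 5, and -0.88, -0.52, -0.58 and -0.82 in their PMA-Ionomycin cultures. All 4 stimulated cultures lay below all 4 mock cultures. The difference was -0.88 (SE 0.18, adjusted p = 0.000591).

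By T24 the mock level of IFNAR1 was 0.70 ± 0.46 and the PMA-Ionomycin level -0.70 ± 0.19, again without overlap, a difference of -1.40 (SE 0.18, adjusted p = 9.77e-07). The IFNAR1 spot was well above background on 1 of 4 PMA-Ionomycin arrays at each time and on all arrays of the other groups. Background thus limits the size of both falls, and no fold is given. The mean PMA-Ionomycin level was -0.70 at both times, so that a change of the fall between them could not be measured. With the scanner's background-subtracted signal the differences were larger, -2.80 at T4 and -3.05 at T24. With LPS the differences were -0.21 at T4 (95% interval -0.58 to 0.16) and 0.39 at T24 (95% interval 0.02 to 0.76), and neither passed (adjusted p = 0.631 and 0.425).

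IRF1, a factor induced by interferon gamma that activates antigen presentation genes, rose with PMA-Ionomycin at T4. The mock cultures of rabbits 1, 2, 4 and 5 were at 1.30, 1.30, 0.95 and 1.61, and the PMA-Ionomycin cultures at 2.73, 3.13, 3.43 and 1.79. The groups did not overlap, but rabbit 5 differed by 0.19 and the other rabbits by up to 2.48. The difference was 1.48 (SE 0.28, 2.80-fold higher, adjusted p = 0.00029).

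At T24 IRF1 was 0.83 ± 0.33 in mock and 1.34 ± 0.39 with PMA-Ionomycin. The difference of 0.51 had the same direction in 4 of 4 rabbits and did not pass (adjusted p = 0.19). Without rabbit 5 the change of the PMA-Ionomycin difference between the times passed (-1.34, adjusted p = 0.0032), as did PMA-Ionomycin against LPS at T24 (0.67, adjusted p = 0.02). The LPS levels, 1.11 ± 0.29 at T4 and 1.01 ± 0.42 at T24, overlapped those of the mock cultures. In the order of the 6 group means, PMA-Ionomycin T4 came first without overlap, and each of the other 5 groups overlapped its neighbours.

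IRF4, which antigen receptor signals induce in lymphocytes, rose the most of the 3 factors. At T4 the mock cultures of rabbits 1, 2, 4 and 5 were at 2.06, 1.81, 1.94 and 2.56, the LPS cultures at 1.97, 1.31, 1.24 and 1.64, and the PMA-Ionomycin cultures at 3.96, 4.00, 4.68 and 4.00. The PMA-Ionomycin cultures stood apart from both other groups, and rabbit 4 was the highest of them. Against mock the difference was 2.07 (SE 0.22, 4.19-fold, adjusted p = 1.87e-07) and against LPS it was 2.62 (SE 0.22, adjusted p = 4.94e-09). LPS itself gave -0.55, with the LPS culture lower in each rabbit, and this missed the threshold (adjusted p = 0.235).

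The IRF4 level also fell during mock culture, from 2.09 ± 0.33 at T4 to 0.39 ± 0.29 at T24. The fall was between 1.66 and 1.76 in every rabbit (difference -1.70, SE 0.22, adjusted p = 7.36e-06), and the groups did not overlap. At T24 the 3 groups lay between 0.14 and 1.24, and PMA-Ionomycin was higher than mock by 0.57 (SE 0.22, 1.49-fold, adjusted p = 0.048). That call was lost under 10 of 20 alternative settings, without rabbit 1, 2 or 4 among them (adjusted p = 0.182, 0.128 and 0.0948), whereas the call at T4 was kept under all 20. The PMA-Ionomycin difference was smaller at T24 than at T4 by 1.49 (SE 0.31, adjusted p = 0.000855).

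IRF8, a factor of monocytes, dendritic cells and B cells, rose with PMA-Ionomycin at T4 and was not higher at T24. Its T4 levels were 1.96, 1.84, 2.04 and 2.36 in the mock cultures of rabbits 1, 2, 4 and 5 and 3.52, 3.75, 3.79 and 3.06 in the PMA-Ionomycin cultures. Every stimulated culture was above every mock culture. The difference was 1.48 (SE 0.29, 2.79-fold, adjusted p = 0.000484), and against LPS it was 1.90 (SE 0.29, adjusted p = 2.54e-05).

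At T24 IRF8 was 2.73 ± 0.65 in mock, 2.49 ± 0.58 with LPS and 2.19 ± 0.20 with PMA-Ionomycin, and the 3 groups overlapped. The PMA-Ionomycin difference of -0.54 did not pass (adjusted p = 0.184) and was negative in 2 of 4 rabbits. It passed with quantile normalization (-0.80, adjusted p = 0.0474) and with processed signal (-0.85, adjusted p = 0.0472). Over the 20 alternatives it ran from -0.85 to -0.15. Rabbit 5 differed by -1.72 and the other rabbits by -0.58 to 0.11. The difference changed between T4 and T24 by -2.02 (SE 0.42, adjusted p = 0.000743), with the same sign in 4 of 4 rabbits.

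IRF5, which carries Toll-like receptor signals to inflammatory cytokine genes in monocytes and B cells, was lower with both stimulations. The T4 mock cultures of rabbits 1, 2, 4 and 5 were at 5.10, 5.27, 5.73 and 5.26, the LPS cultures at 4.43, 4.51, 3.55 and 4.90, and the PMA-Ionomycin cultures at 3.36, 3.13, 3.44 and 3.29. The 3 groups did not overlap. PMA-Ionomycin lowered the level by 2.03 (difference -2.03, SE 0.25, 4.09-fold, adjusted p = 1.64e-06). LPS gave -0.99 (SE 0.25, 1.99-fold, adjusted p = 0.0583), just short of the threshold, and with the rabbit as a block the adjusted p was 0.0264. The PMA-Ionomycin and LPS cultures differed by -1.04 (SE 0.25, adjusted p = 0.0028).

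At T24 the mock cultures were at 5.72, 5.73, 6.40 and 6.57 in rabbits 1, 2, 4 and 5, the LPS cultures at 4.48, 4.90, 4.71 and 5.63, and the PMA-Ionomycin cultures at 4.67, 4.52, 4.66 and 4.35. Both stimulated groups lay below the mock group without overlap, and overlapped each other. The difference between them was -0.38 (adjusted p = 0.296), and it passed with quantile normalization (-0.99, adjusted p = 0.00573), normexp (-0.99, adjusted p = 0.00653) and processed signal (-0.69, adjusted p = 0.0306). LPS gave a difference of -1.17 (SE 0.25, 2.25-fold, adjusted p = 0.0172) with 1 direction in the 4 rabbits, but the call was lost without rabbit 1 (adjusted p = 0.119), rabbit 2 (0.138) or rabbit 4 (0.173), or with only the 8 arrays of the comparison (0.201). The PMA-Ionomycin difference was -1.55 (SE 0.25, 2.93-fold, adjusted p = 2.69e-05). Neither difference changed detectably between T4 and T24 (changes of -0.18 with LPS and 0.48 with PMA-Ionomycin, adjusted p = 0.822 and 0.439).

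IRF7, the main driver of interferon alpha genes and itself a response gene, fell with PMA-Ionomycin at T4. At T4 it stood at 10.84, 9.57, 9.62 and 9.40 in the mock cultures of rabbits 1, 2, 4 and 5 and at 8.33, 7.17, 7.77 and 5.85 in their PMA-Ionomycin cultures. The groups did not overlap, and rabbit 5 was the lowest of both. The difference was -2.58 (SE 0.52, 5.97-fold lower, adjusted p = 0.000619), and against LPS it was -3.07 (SE 0.52, 8.37-fold, adjusted p = 8.07e-05). LPS cultures were at 10.35 ± 0.19, a difference from mock of 0.49 (95% interval -0.60 to 1.58, adjusted p = 0.714).

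At T24 the spread between rabbits was wide in mock, where IRF7 was 10.02, 9.37, 9.21 and 6.75 in rabbits 1, 2, 4 and 5. The low value of rabbit 5 was not seen with LPS (9.45 ± 0.19) or with PMA-Ionomycin (8.17 ± 0.59). PMA-Ionomycin gave -0.67 over all rabbits (adjusted p = 0.413) and -1.36 without the mock T24 culture of rabbit 5 (adjusted p = 0.0141), and it also passed with quantile normalization (-1.35, adjusted p = 0.0456). The change of the PMA-Ionomycin difference between the times was 1.91 (SE 0.74, adjusted p = 0.0695), and with the rabbit as a block it passed (adjusted p = 0.0196). Rabbit 5 changed by 5.23 and the others by 0.32 to 1.05, and without rabbit 5 the change was 0.80 (adjusted p = 0.343).

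MX1, a dynamin-like GTPase that traps viral nucleocapsids, fell with PMA-Ionomycin at T4 and was not lower than mock at T24. Its T4 levels were 7.60, 5.71, 6.31 and 6.46 in the mock cultures of rabbits 1, 2, 4 and 5 and 5.28, 3.34, 5.43 and 3.22 with PMA-Ionomycin. The groups did not overlap, and the differences within a rabbit ran from -3.24 to -0.88. The difference was -2.20 (SE 0.50, 4.6-fold lower, adjusted p = 0.00167).

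In mock culture MX1 fell between T4 and T24, from 6.52 ± 0.79 to 4.65 ± 0.72 (difference -1.87, SE 0.50, 3.65-fold, adjusted p = 0.0124), by 1.49 to 2.41 in every rabbit. Without rabbit 4 or rabbit 5 that fall did not pass (adjusted p = 0.06 and 0.0605). At T24 the PMA-Ionomycin cultures were at 6.13, 4.38, 5.90 and 6.13 in rabbits 1, 2, 4 and 5 against 5.64, 4.22, 4.70 and 4.05 in mock. That difference was 0.98, higher in 4 of 4 rabbits, and did not pass (adjusted p = 0.148). With the rabbit as a block it did (adjusted p = 0.0455). Over the 20 alternatives the difference ran from 0.41 to 1.26, and rabbit 5 differed by 2.08 and the other rabbits by 0.16 to 1.21. Between the times the PMA-Ionomycin difference changed by 3.19 (SE 0.70, adjusted p = 0.00146), and by 2.47 without rabbit 5 (adjusted p = 0.0315).

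ISG15, a ubiquitin-like protein that is attached to other proteins after interferon signalling, was the 1 gene of the 10 not called with PMA-Ionomycin at T4. The mock cultures of rabbits 1, 2, 4 and 5 were at 9.59, 8.80, 8.43 and 9.02 and the PMA-Ionomycin cultures at 8.50, 7.88, 7.54 and 6.27. The stimulated culture of every rabbit was the lower one, and the highest stimulated culture lay just above the lowest mock culture. The difference was -1.42 (SE 0.57, adjusted p = 0.0828). It passed under 6 of 20 alternative settings, among them the rabbit as a block (adjusted p = 0.0288), quantile normalization (-1.67, adjusted p = 0.0342) and leaving out the mock T24 culture of rabbit 5 (adjusted p = 0.00919).

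ISG15 fell the most of the 10 genes during mock culture, from 8.96 ± 0.48 at T4 to 6.33 ± 1.81 at T24 (difference -2.63, SE 0.57, 6.2-fold, adjusted p = 0.00237). Without rabbit 5 the fall was -1.80 (adjusted p = 0.00548), and with only the 8 arrays of the comparison it did not pass (adjusted p = 0.0643). The T24 mock levels were 8.22, 6.91, 6.30 and 3.89 in rabbits 1, 2, 4 and 5, against 7.62, 7.96, 7.47 and 7.35 with LPS and 7.50, 6.66, 7.02 and 7.48 with PMA-Ionomycin. The spread between rabbits was thus wide in mock and narrow in both stimulated groups. LPS cultures were higher than mock by 1.27 at T24 (95% interval 0.09 to 2.46), in 3 of 4 rabbits, and this did not pass (adjusted p = 0.406). Without the mock T24 culture of rabbit 5 it was 0.46. The change of the PMA-Ionomycin difference between the times, 2.25, had an adjusted p of 0.0476 that was lost under 13 of 20 alternative settings, without rabbit 2, 4 or 5 among them (adjusted p = 0.0866, 0.146 and 0.357). It was 0.89 without rabbit 5 and 1.44 without the mock T24 culture of rabbit 5 (adjusted p = 0.0829).

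**Figure D3:**
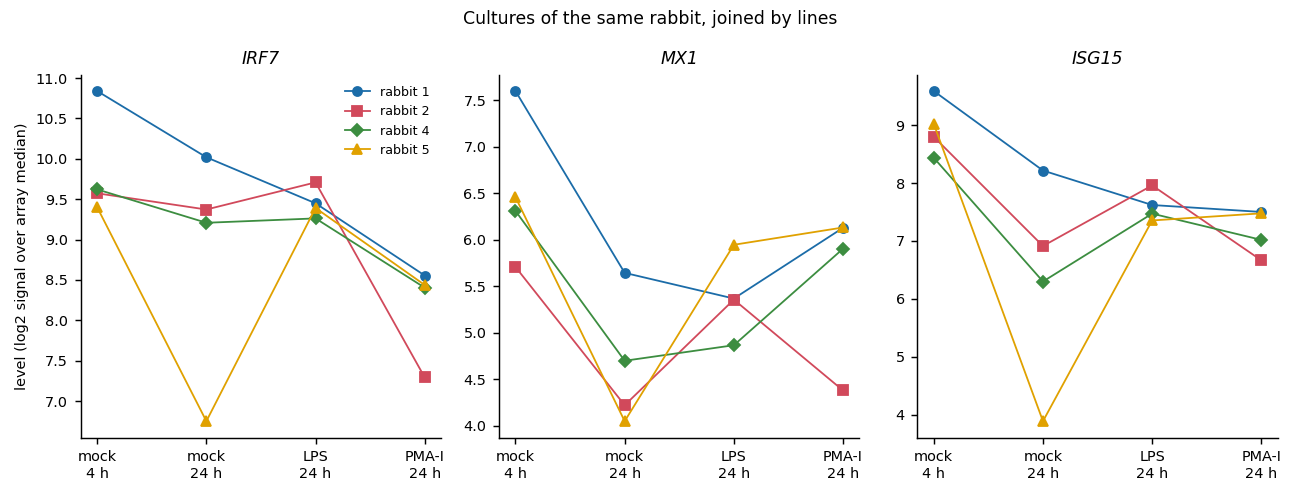
Levels of IRF7, MX1 and ISG15 (y axis, log2 signal over the array median) in mock cultures at 4 h and 24 h and in LPS and PMA-Ionomycin cultures at 24 h (x axis), with a line for each rabbit. Rabbit 5 drops to 6.75 for IRF7 and to 3.89 for ISG15 in mock at 24 h, far below the other rabbits, and not in its stimulated cultures.

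Over the 24 arrays the deviations of IRF7 from its group means followed those of ISG15 (Pearson r = 0.91) and of MX1 (r = 0.74), and those of ISG15 followed MX1 less closely (r = 0.55). Other pairs did so too: IRF5 with IRF8 (r = 0.82), IRF4 with IRF8 (r = 0.58) and IRF1 with CALHM6 (r = 0.58). The mock T24 culture of rabbit 5 lay far below the group mean in IRF7 (6.75 against 8.84) and ISG15 (3.89 against 6.33), and r without it was not computed. These are descriptions over arrays that share rabbits, slides and their centring. The gene whose levels were most like IRF7 among 6647 bright genes with a symbol was the RNA sensor IFIH1 (r = 0.94 over 24 arrays), followed by IFIT3 (r = 0.91) and UBE2L6 (r = 0.90). For MX1 they were USP18 (r = 0.93), RIGI (r = 0.93) and PARP9 (r = 0.93), and for ISG15 they were GCH1 (r = 0.83), OASL (r = 0.83) and G0S2 (r = 0.83).

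The likeness of the other factors pointed to other genes. IRF4 was most like the histidine decarboxylase HDC (r = 0.99), NFKB1 (r = 0.96) and DDX3X (r = 0.96), and IRF1 was most like SERPINE2 (r = 0.89), IL17A (r = 0.88) and RORB (r = 0.88). IRF8 was most like B3GNT5 (r = 0.88), SMAD4 (r = 0.86) and SLC35C2 (r = 0.86), and IRF5 like MVP (r = 0.92), ATG16L2 (r = 0.92) and DENND1C (r = 0.91). IFNAR1 was most like ABCG1 (r = 0.94), RASSF2 (r = 0.94) and PAQR5 (r = 0.93).

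SAMHD1, an enzyme that degrades deoxynucleotides and so restricts retroviruses in resting cells, was lower with both stimulations at T4 and with neither at T24. At T4 its level was 1.95, 2.40, 3.61 and 3.0 in the mock cultures of rabbits 1, 2, 4 and 5, 1.24, 0.83, 0.72 and 1.98 with LPS, and 0.70, 0.60, 0.58 and 0.82 with PMA-Ionomycin. The PMA-Ionomycin cultures lay close together and below all mock cultures, whereas the LPS culture of rabbit 5 just overlapped the mock culture of rabbit 1. The PMA-Ionomycin difference was -2.06 (SE 0.33, 4.18-fold, adjusted p = 4.46e-05).

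The LPS difference of SAMHD1 at T4 was -1.54 (SE 0.33, 2.92-fold, adjusted p = 0.0366), and the LPS culture was the lower one in each rabbit. Without rabbit 2 or rabbit 4, where no gene of the array was called, the difference was -1.54 and -1.10 (adjusted p = 0.212 and 0.586). The call was also lost under 6 other settings of 20. At T24 the means were 2.73 ± 0.53 in mock, 2.95 ± 0.16 with LPS and 2.76 ± 0.63 with PMA-Ionomycin, and the 3 groups overlapped. The PMA-Ionomycin difference changed between the times by 2.09 (SE 0.47, adjusted p = 0.00169) and the LPS difference by 1.76 (SE 0.47, adjusted p = 0.0521, and 0.0369 with the rabbit as a block). SAMHD1 was most like CMAS (r = 0.88), CASP6 (r = 0.86) and TWF2 (r = 0.86).

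CALHM6, a membrane channel protein that interferon gamma induces in myeloid cells, fell further than any other of the 10 genes. The 5 probes are printed in order along the gene, with the bases that each shares with the next one in capitals, to show that they read overlapping stretches and are not independent measurements.
CALHM6 probe 1: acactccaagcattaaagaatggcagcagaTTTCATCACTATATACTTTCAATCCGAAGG
CALHM6 probe 2: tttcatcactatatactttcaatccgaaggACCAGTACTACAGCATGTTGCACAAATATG
CALHM6 probe 3: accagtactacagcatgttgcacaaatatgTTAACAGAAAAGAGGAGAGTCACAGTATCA
CALHM6 probe 4: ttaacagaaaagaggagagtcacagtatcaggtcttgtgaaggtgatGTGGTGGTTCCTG
CALHM6 probe 5: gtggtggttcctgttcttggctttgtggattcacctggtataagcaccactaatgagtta

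At T4 the mean level of CALHM6 over its probes was 5.74, 5.38, 4.71 and 5.47 in the mock cultures of rabbits 1, 2, 4 and 5, 5.76, 5.20, 4.59 and 5.06 with LPS, and -0.20, 0.30, -0.43 and -0.46 with PMA-Ionomycin. The mock and LPS cultures overlapped fully, and the PMA-Ionomycin cultures lay far below both. The PMA-Ionomycin difference was -5.52 (SE 0.36, adjusted p = 1.3e-10). Probes 4 and 5 were well above background on all 4 PMA-Ionomycin arrays and probes 1, 2 and 3 on 1, 0 and 2 of them, and the scanner's background-subtracted signal gave -7.23.

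At T24 CALHM6 was at 3.33, 4.60, 3.45 and 4.28 in mock and at 1.57, 1.76, 0.87 and 0.91 with PMA-Ionomycin in rabbits 1, 2, 4 and 5. The groups remained apart, a difference of -2.64 (SE 0.36, 6.23-fold, adjusted p = 2.91e-06), smaller than at T4 by 2.88 (SE 0.52, adjusted p = 0.000177). Mock cultures themselves fell by 1.41 between the times (SE 0.36, 2.66-fold, adjusted p = 0.0101), and without rabbit 1 that fall did not pass (adjusted p = 0.177). With LPS the differences were -0.17 at T4 (95% interval -0.93 to 0.58) and -0.43 at T24 (95% interval -1.18 to 0.33), with adjusted p = 0.857 and 0.798.

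Probes 4 and 5 fell with PMA-Ionomycin by 6.01 and 5.56 at T4. The differences of probes 1, 2 and 3 were -5.31, -5.53 and -5.20, and their size is limited by background, which these probes reached. At T24 the 5 probes fell by 1.85 to 3.17, and the smallest fall at T24 was that of probe 5. Probes 1, 2 and 3 list a second gene beside CALHM6 in the array annotation, and probes 4 and 5 list CALHM6 alone. CALHM6 was most like ZNF618 (r = 0.93), RIPOR2 (r = 0.92) and CCDC69 (r = 0.91).

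**Figure D4:**
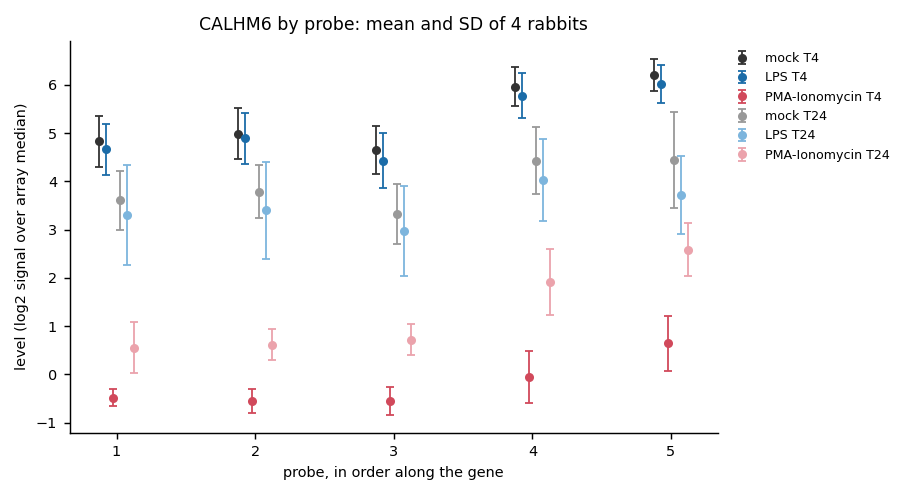
CALHM6 by probe (x axis, in order along the gene): mean level (y axis, log2 signal over the array median) and SD of the 4 rabbits in each group of cultures. At every probe the mean of the PMA-Ionomycin cultures lies below those of the mock and LPS cultures of the same time, and the mock and LPS cultures overlap. At probe 5 at 24 h the PMA-Ionomycin culture of rabbit 2 (3.14) is above the LPS cultures of rabbits 1 and 4, of which the higher is at 3.05.

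Against LPS, the PMA-Ionomycin cultures differed in 9 of the 10 genes at T4, against 26.7% of all genes, with IRF1, IRF4 and IRF8 higher (3 of 10, against 17.7%) and IRF5, IRF7, IFNAR1, MX1, ISG15 and CALHM6 lower (6 of 10, against 9.03%). The ISG15 call was lost without rabbit 2 or rabbit 4 (adjusted p = 0.136 and 0.123). SAMHD1 was the exception (difference -0.52, 95% interval -1.20 to 0.17, adjusted p = 0.298). At T24 IFNAR1 (-1.78, SE 0.18, adjusted p = 2.03e-08) and CALHM6 (-2.21, SE 0.36, adjusted p = 2.68e-05) were called, both lower, 2 of 10 against 36.1% of all genes called and 12.5% called lower. The IFNAR1 spot was well above background on 1 of 4 PMA-Ionomycin T24 arrays, which limits the size of its difference, and under the 20 alternatives it reached -3.61. IRF7 missed the threshold (-1.28, SE 0.52, adjusted p = 0.0617) and passed under 10 of 20 alternative settings, among them the rabbit as a block (adjusted p = 0.0179) and quantile normalization (-2.06, adjusted p = 0.00257). The PMA-Ionomycin difference from mock changed between T4 and T24 in 6 of the 10 genes, against 22.5% of all genes. It changed upward in SAMHD1, MX1, ISG15 and CALHM6 (4 of 10, against 14.4%) and downward in IRF4 and IRF8 (2 of 10, against 8.17%).

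Time in culture alone moved 5 of the 10 genes in the mock cultures, against 12.5% of all genes. IRF4, MX1, ISG15 and CALHM6 were lower at T24 (4 of 10, against 5.13%) and IRF5 was higher (1 of 10, against 7.42%). The IRF5 difference of 0.76 (SE 0.25, adjusted p = 0.0493) was lost under 15 of 20 alternative settings, among them without any 1 of the rabbits (adjusted p = 0.0688 to 0.144).

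The other genes of the pathway were taken as lists of 119 symbols, of which 65 had a probe. With PMA-Ionomycin at T4, 32 of the 65 fell (against 9.33% of all genes) and 4 rose (against 13.4%), with a median difference of -0.72 against 0.05 over all genes. Of 34 other interferon response genes 21 fell and WARS1 alone rose. Of 12 sensors and inducers of interferon 4 fell and 1 rose, and of 12 genes of receptors and signalling 4 fell and 1 rose.

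The largest falls of these lists were in TLR3, a sensor of double-stranded RNA (-3.14, SE 0.34, adjusted p = 2.83e-07), XAF1, a response gene linked to cell death (-3.12, SE 0.49, adjusted p = 3.64e-05), and IFIH1, a cytosolic sensor of viral RNA (-3.0, SE 0.42, adjusted p = 7.49e-06). Of the 4 genes called higher, SOCS3, a feedback inhibitor of JAK signalling, rose by 2.14 (SE 0.41, adjusted p = 0.000338) and the tryptophanyl-tRNA synthetase WARS1 by 0.89 (SE 0.30, adjusted p = 0.0358). The WARS1 call was lost under 8 of 20 settings, among them without rabbit 1, 2 or 4 (adjusted p = 0.12, 0.137 and 0.0992) and quantile normalization (adjusted p = 0.111). Each of these genes had 1 direction in the 4 rabbits. At least 1 of the TLR3 probes was well above background on 3 of 4 PMA-Ionomycin arrays, so that background limits the size of its fall. Over the 20 settings that difference ran from -5.08 to -2.79.

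The interferon gamma gene IFNG was also called higher by the mean of its 2 probes (1.19, SE 0.23, adjusted p = 0.000443, in 4 of 4 rabbits), but the probes moved in opposite directions. One was not well above background on any mock T4 array and was at least 7.97-fold higher with PMA-Ionomycin (adjusted p over all probes 3.26e-07), a bound against the lowest signal well above background on each array. The other was well above background on every array and fell by 0.79 (SE 0.27, adjusted p over all probes 0.0381).

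Of the 4 other IRF genes measured, 3 fell at T4, against 9.33% of all genes: IRF9, IRF2 and IRF3 (-0.79, -0.63 and -0.45, adjusted p = 0.0226, 0.00155 and 0.012), chosen here after their values were seen. Of the other interferon genes, the IFNB1 and IFNK spots were not well above background on any array at T4.

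By T24 the lists were split, with 19 of 65 genes lower than mock (against 11.5% of all genes) and 9 higher (against 22.1%), and a median of -0.13. The receptor chains led the falls: IFNGR2 (-3.70, SE 0.25, adjusted p = 4.28e-11), IFNAR2 (-3.26, SE 0.33, adjusted p = 2.79e-08) and IFNGR1 (-2.59, SE 0.37, adjusted p = 4.94e-06). The immunoproteasome subunit PSMB9 (2.25, SE 0.30, adjusted p = 2e-06) and WARS1 (1.81, SE 0.30, adjusted p = 3.55e-05) led the rises. Of the 34 other response genes 7 were lower and 4 higher, and 23 did not pass.

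**Figure D5:**
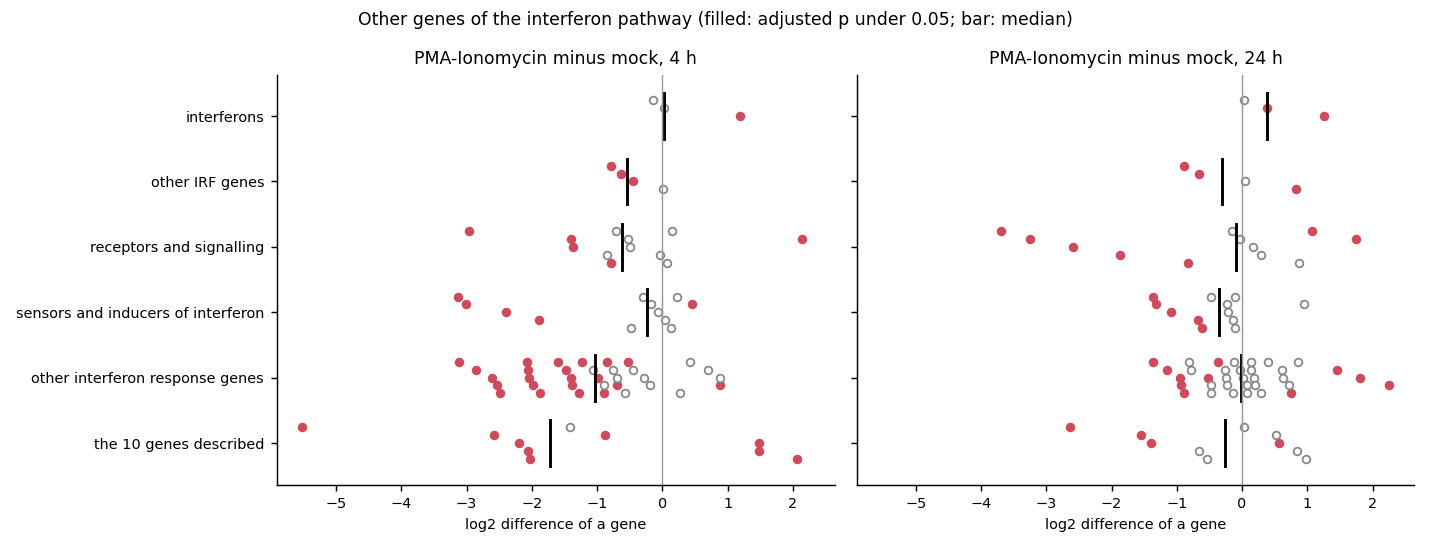
Difference between PMA-Ionomycin and mock cultures (x axis, log2) of each measured gene of the 5 pathway lists and of the 10 genes described (y axis), at 4 h and 24 h. Filled points have an adjusted p under 0.05 and the bar is the median, and 21 of the 34 other interferon response genes are filled below 0 at 4 h and 7 at 24 h.

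The change of the PMA-Ionomycin difference between T4 and T24 passed in 33 of the 65 genes (against 22.5% of all genes), upward in 25 (against 14.4%) and downward in 8 (against 8.17%). It was largest upward in the protease USP18, which removes ISG15 from its targets (3.83, SE 0.61, adjusted p = 4.34e-05), the RNA sensor RIGI (3.35, SE 0.59, adjusted p = 0.000147) and PSMB9 (3.24, SE 0.43, adjusted p = 4.44e-06). It was largest downward in SOCS3 (-2.30, SE 0.58, adjusted p = 0.00478), IFNGR2 (-2.30, SE 0.35, adjusted p = 2.77e-05) and the checkpoint ligand gene CD274 (-2.04, SE 0.59, adjusted p = 0.0127). Without rabbit 5 the changes were 2.80 for USP18 and 2.40 for RIGI (adjusted p = 0.00213 and 0.00337), against 3.08 for PSMB9, and -2.93 for SOCS3. The calls of SOCS3 and CD274 were lost without rabbit 2 (adjusted p = 0.0562 and 0.0916) or rabbit 4 (adjusted p = 0.0662 and 0.173).

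With LPS at T4, 3 of the 65 genes were called and all were lower (against 0.969% of all genes): IFNGR1 (-1.69, SE 0.37, adjusted p = 0.0384), the adaptor MYD88 (-1.19, SE 0.23, adjusted p = 0.0215) and IFNGR2 (-1.10, SE 0.25, adjusted p = 0.0398). Without rabbit 4, where no gene of the array was called, the differences were -1.24, -0.77 and -0.82, and without rabbit 2, where none was called either, they were -1.66, -1.29 and -1.06. IFNGR1 did not pass without rabbit 1 or rabbit 5 either (adjusted p = 0.0523 and 0.059), nor MYD88 without rabbit 1 (adjusted p = 0.0516) or IFNGR2 without rabbit 5 (adjusted p = 0.0501). Over the 20 alternative settings IFNGR1 was lost in 10, IFNGR2 in 9 and MYD88 in 6, and with quantile normalization neither IFNGR1 nor IFNGR2 passed (adjusted p = 0.0589 and 0.0767). At T24 limma called 0 of the 65 (against 1.23% of all genes), with 8 under an unadjusted p of 0.05. The LPS difference changed between the times in IFNGR1 (2.45, SE 0.52, adjusted p = 0.0204) and MYD88 (1.26, SE 0.32, adjusted p = 0.0398), 2 of the 65 and both upward, against 1.71% of all genes. The MYD88 change did not pass without any 1 of the rabbits (0.87 to 1.47, adjusted p = 0.0933 to 0.224). That of IFNGR1 did not without rabbit 2 (2.33, adjusted p = 0.207) or rabbit 4 (1.77, adjusted p = 0.176), where 7 and 31 of all genes passed.

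During mock culture 15 of the 65 genes fell (against 5.13% of all genes) and 5 rose (against 7.42%). The largest falls were in the response gene OASL (-3.49, SE 0.49, adjusted p = 2.02e-05), USP18 (-2.0, SE 0.43, adjusted p = 0.00211) and RIGI (-1.65, SE 0.42, adjusted p = 0.00859). The receptor chains IL10RB (1.30, SE 0.30, adjusted p = 0.00406), IFNAR2 (1.07, SE 0.33, adjusted p = 0.033) and IFNGR2 (0.80, SE 0.25, adjusted p = 0.0338) led the rises. Without rabbit 1 none of the 3 passed (adjusted p = 0.133, 0.192 and 0.402). IFNAR2 also failed without rabbit 2, 4 or 5 (adjusted p = 0.0841, 0.0691 and 0.051) and IFNGR2 without rabbit 2 or 4 (adjusted p = 0.114 and 0.066).

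Between the 2 stimulations, TLR3 (-4.07, SE 0.34, adjusted p = 5.4e-09), the chemokine CXCL10 (-3.80, SE 0.44, adjusted p = 5.46e-07) and USP18 (-3.51, SE 0.43, adjusted p = 1.09e-06) were the lowest with PMA-Ionomycin against LPS at T4, among 31 lower (against 9.03% of all genes) and 7 higher genes (against 17.7%) of the 65. WARS1 (1.68, SE 0.30, adjusted p = 0.000144), SOCS3 (1.54, SE 0.41, adjusted p = 0.00603) and the LPS receptor TLR4 (1.36, SE 0.48, adjusted p = 0.039) were the highest. At least 1 probe of TLR3 and of CXCL10 was well above background on 3 of 4 PMA-Ionomycin T4 arrays, so that background limits the size of these differences. Under the 20 settings they reached -6.33 for TLR3 and -6.14 for CXCL10. The TLR4 call was lost under 8 of 20 settings, among them without rabbit 1, 2 or 4 (adjusted p = 0.1, 0.143 and 0.145) and quantile normalization (adjusted p = 0.155), and the SOCS3 call without rabbit 4 (1.16, adjusted p = 0.125). At T24, IFNGR2 (-3.60), IFNAR2 (-3.59) and IFNGR1 (-3.34) were the lowest of 24 lower genes (against 12.5% of all genes), and the 8 higher genes (against 23.6%) included PSMB9 (2.12) and SOCS1 (1.52).

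The cell types in the cultures were followed through marker lists, since in bulk RNA fewer cells of a type and less RNA per cell cannot be told apart. Markers of monocytes, B cells and T cells were detected in mock cultures, except that CD4 and CD28 were not well above background on any mock T4 array. The log2 of the summed level of 11 monocyte markers was 7.62 to 8.69 in mock T4, 6.60 to 7.18 in LPS T4 and 6.18 to 6.89 in PMA-Ionomycin T4, and at T24 it was 9.07 to 10.2 in mock, 8.85 to 9.84 with LPS and 6.47 to 7.24 with PMA-Ionomycin. The range of the monocyte markers lay below that of mock in each stimulated group except LPS T24, where the ranges overlapped and IRF5 was lower too. IRF5 was also lower with PMA-Ionomycin than with LPS at T4, where the monocyte ranges overlapped and 2 markers were called higher and 2 lower. Of the 11, 4 were called lower with LPS at T4 (against 0.969% of all genes), 1 with LPS at T24 (against 0.582%), and 5 and 10 with PMA-Ionomycin at T4 and T24 (against 9.33% and 11.5%). In mock T24 against mock T4, 7 of the 11 were called higher (against 7.42% of all genes) and 0 lower, and IRF5 was higher there too. Overlapping ranges do not show that the monocyte content was equal.

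The summed level of 8 B cell markers was 8.43 to 9.40 in mock T4 and 6.83 to 7.63 in PMA-Ionomycin T4, where IRF4 and IRF8 were higher. Of the 8, 4 were called lower there (against 9.33% of all genes) and 1 higher (against 13.4%), the kinase gene BLK, named after its value was seen. The summed level of 4 markers of plasmacytoid dendritic cells, the cells richest in IRF7, was 5.17 to 6.07 in mock T4. In PMA-Ionomycin T4 it was 4.32 to 5.06, and SPIB and BCL11A were not well above background on any array. These 2 were called lower (against 9.33% of all genes), and the other markers were not called. The summed B cell level was lower in the same cultures, and from which cells the fall came was not tested. At T24 the summed level of these 4 markers was 5.19 to 6.93 in mock and 3.71 to 4.54 with PMA-Ionomycin. There 3 of the 4 were called lower (against 11.5% of all genes). Both markers of conventional dendritic cells and 4 of the 7 neutrophil markers were called lower there as well (against 11.5% of all genes). IFNAR1 and the other receptor chains were lower in the same cultures. The summed level of 7 neutrophil markers rose from between 8.0 and 8.69 in mock T4 to between 8.91 and 12.3 in mock T24. MX1 and ISG15 were lower in mock T24. A summed level mostly follows its brightest markers. Of the 7, MMP9, LTF, CAMP and MPO were called higher (against 7.42% of all genes) and 0 lower, and the median difference was 0.63. All 4 platelet markers were called lower with PMA-Ionomycin at T4 (against 9.33% of all genes). All 4 were also called lower in mock T24 than in mock T4 (against 5.13%). The part of these cell types in the results was not tested. Each of the 3 slides held all 6 groups, and the 93 within-slide values of the called differences all had the direction of the pooled value. These values come from the same arrays as the pooled ones, so that they are no independent test of a slide effect.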

How the data were processed

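The arrays were custom rabbit 60-base oligonucleotide arrays. The authors labelled RNA with Cy3 and extracted the signals with Agilent Feature Extraction 10.7.3.1. The deposited scanner files hold intensity values per spot, used here as the median signal, and per the file headers protocol GE1_107_Sep09. The deposited series table holds log2 values that equal the log2 median signal minus each array's mean over all spots, with the scale and centring thus known. Its column medians ran from -1.11 to -0.81, and it served as an alternative.

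Control spots and outlier spots were left out, log2 signals were centred on the array median, and 42089 probes were averaged into 28890 genes, named by RefSeq accession or gene number (RefSeq table, assembly mOryCun1.1). IRF7 and MX1 were named through the gene description in the files and ISG15 through the study's immune gene list. Group means were fitted with limma 3.58.1 in R 4.3.3 (lmFit, eBayes) over 24 arrays and adjusted by Benjamini-Hochberg over all genes. The code was tested on simulated data. Alternatives covered normalization, background, filters, blocks and left-out rabbits or arrays. The 3 single arrays left out were chosen after seeing the data.

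The members and lists were chosen with earlier results of these data known. All 10 members were described, and of the pathway lists at most 3 rises and 3 falls per comparison that passed, had 1 direction in all rabbits and were well above background (with any of their probes) on the brighter group's 4 arrays. A further gene that met this rule is counted in its list and is not reported here. The same rabbit gave a culture to each group: deviations from group means correlated at a median r of 0.23 over 60 pairs of arrays of 1 rabbit and -0.08 over 180 pairs of different rabbits. The number of arrays limits the precision. Depth in reads does not apply to arrays.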

Additional observations from a re-analysis of the deposited data

Results flagged for a closer look

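In groups of 4 cultures, 1 culture lay far from the other 3 (by the ratio of its gap to the whole range) in 16 of 180 groups searched, and chance gives about 1 in 20. For IRF4 with PMA-Ionomycin at T4, rabbit 4 stood at 4.68 above 3.96 to 4.00 in the others (ratio 0.937). For IRF7, rabbit 1 in mock T4 stood at 10.84 above 9.40 to 9.62 (ratio 0.846), and rabbit 2 with PMA-Ionomycin at T24 at 7.29 below 8.40 to 8.56 (ratio 0.88). In the same culture of rabbit 2, MX1 stood at 4.38 below 5.90 to 6.13 (ratio 0.87).

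Among the other pathway genes, the LPS T4 culture of rabbit 4 was low in IFNGR1 (1.31, ratio 0.882) and MYD88 (1.26, ratio 0.859). Rabbit 2 with PMA-Ionomycin at T4 was low in MYD88 (ratio 0.947) and PSMB9 (ratio 0.925), and its array had 52.6% of spots well above background against 59.0% or more in the others (ratio 0.866). The mock T24 culture of rabbit 5 was low in CD274 (2.09 below 4.06, ratio 0.835). Rabbit 5 was low in TLR4 in mock T4 (3.15, ratio 0.92) and LPS T4 (2.47, ratio 0.865) and in IFNG in mock T4 (2.26, ratio 0.898). The remaining ones were MYD88 in mock T24 of rabbit 1 (ratio 0.906), IFNGR2 with PMA-Ionomycin at T4 of rabbit 4 (ratio 0.869) and SOCS3 with PMA-Ionomycin at T24 of rabbit 1 (ratio 0.932).

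The difference from mock changed between T4 and T24, by the interaction test in limma, in the genes given here, which outside the 10 include genes named for large changes. Over all genes the test called 22.5% with PMA-Ionomycin and 1.95% with LPS. With PMA-Ionomycin the changes among the 10 genes were -1.49 for IRF4, -2.02 for IRF8, 2.09 for SAMHD1, 3.19 for MX1, 2.25 for ISG15 and 2.88 for CALHM6. Among the other genes they were upward in USP18 (3.83), RIGI (3.35), PSMB9 (3.24), XAF1 (3.18), CXCL10 (3.16), IFIH1 (2.89), TLR3 (1.82) and SOCS1 (1.56). They were downward in SOCS3 (-2.30), IFNGR2 (-2.30), CD274 (-2.04), IFNAR2 (-1.89) and IFNGR1 (-1.73). With LPS they were 2.45 for IFNGR1, lost without rabbit 2 or 4, and 1.26 for MYD88, lost without any 1 of the rabbits. The changes of ISG15, SOCS3 and CD274 were lost without some rabbits, as given above.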

How the results depend on the processing

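Under 20 alternatives, the 37 called differences of the 10 genes kept their direction in all 740 values and stayed called in 681, and 26 of the 37 were called under every alternative. The count of genes called with LPS at T4 (1) was 0 with quantile normalization, processed signal, normexp, the deposited log2 table, only the arrays of the comparison and without the LPS T4 array of rabbit 4. It was 2 without dim probes, with the rabbit as a replicate block, with array weights and without the mock T24 array of rabbit 5 or the PMA-Ionomycin T4 array of rabbit 2, and 0 to 2 without each rabbit. With LPS at T24 (1) it was 0 with only the arrays of the comparison and 0 to 1 without each rabbit. The count for the change of the LPS difference (0) was 1 without dim probes, with the replicate block, array weights, single probes, or without the PMA-Ionomycin T4 array of rabbit 2. Over time in mock culture (5) it was 3 with only the arrays of the comparison and 3 to 4 without each rabbit. PMA-Ionomycin against LPS at T24 (2) gave 4 with quantile normalization, processed signal and normexp, and 2 to 4 without each rabbit. Processed signal moved the median of all genes to 0.22 with LPS at T4, -0.16 and -0.26 with PMA-Ionomycin at T4 and T24, and -0.41 between the stimulations at T4. All genes called higher and lower with PMA-Ionomycin were 3883 and 2696 at T4 (3713 and 3685 with quantile normalization, 3296 and 3710 with processed signal) and 6394 and 3320 at T24 (4984 and 4453, 4680 and 5430). Over all genes LPS at T4 called 296, against 114 with quantile normalization, 12 with processed signal, 1229 with the replicate block, 0 with only the arrays of the comparison, 3 without the LPS T4 array of rabbit 4, and 0 to 119 without each rabbit. The replicate block lost no call of the 10 genes.

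Changes of sign among the 10 genes occurred only in values that were not called. SAMHD1 with PMA-Ionomycin at T24 (0.03) became -0.33 with processed signal, -0.31 with normexp, -0.29 with quantile normalization, -0.12 in the deposited table, -0.0743 with array weights, -0.002 with the slide as a block, -0.21 without the mock T24 array of rabbit 5, and -0.10 to 0.16 without each rabbit. SAMHD1 over time in mock culture became 0.0053 in the deposited table, 0.0104 with the slide as a block, 0.23 without that array, and -0.37 to 0.32 without each rabbit. Without that array, SAMHD1, IRF7 and IRF8 with LPS at T24 became -0.0169, -0.0804 and 0.0627, and without each rabbit they were 0.0537 to 0.33, -0.0599 to 1.01 and -0.46 to -0.0747. The change of the IRF7 difference with LPS became -0.57 without that array, -0.0973 with processed signal, -0.36 with array weights, and -0.49 to 0.40 without each rabbit. Without the LPS T4 array of rabbit 4, CALHM6 with LPS at T4 became 0.0165 and the change of IRF8 with LPS -0.059. Without each rabbit these were -0.23 to -0.0931 and 0.10 to 0.28, with 0.48 for the latter without the mock T24 array of rabbit 5. CALHM6 with LPS at T4 was 0.0713 with processed signal and 0.0921 with array weights, where IRF1 was 0.0045. MX1 between PMA-Ionomycin and LPS at T24 became -0.39 with quantile normalization, -0.40 with normexp and -0.061 with processed signal, and -0.0099 to 0.66 without each rabbit. Without each rabbit, IRF1 with LPS at T24 was -0.10 to 0.32, ISG15 with PMA-Ionomycin at T24 -0.0811 to 1.35, the changes of IRF1 and MX1 with LPS -0.0537 to 0.55 and -0.0559 to 0.65, and IRF8 and SAMHD1 between the stimulations at T24 -0.50 to 0.0352 and -0.34 to 0.0412. The causes of these moves were not tested. Spots near background, as those of IFNAR1 with PMA-Ionomycin, limit the size of a fall that can be measured.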
